A study of Mus musculus with 79 samples.

Results

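Cells sorted as Schwann cells, by their GFP, from the regenerative bridge after delayed nerve repair were compared between day 14 and day 5. The 16 libraries are all samples of the series that the labels give as Schwann cells after a delay, 9 from day 5 and 7 from day 14, out of 79 samples in all. In the study the common peroneal nerve of S100b-eGFP mice, in which a human S100B promoter drives GFP, was joined to the distal tibial stump in a silicone conduit, and in these animals the tibial branch had been cut 8 weeks before the repair. Tissue that had grown into the conduit was dissociated at day 5 (4 males and 5 females) or at day 14 (4 males and 3 females), and GFP-positive cells that carried none of the macrophage, granulocyte, lymphocyte, fibroblast, endothelial or erythroid antigens of the sort were collected. Each library came from a single animal, and RNA was amplified from few cells. The 15 Schwann cell libraries of animals repaired at once, which had a sham incision 8 weeks earlier, and the 16 macrophage libraries of the same delayed animals were used for comparison. The ages of the animals are not given in the sources used here.

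Schwann cells are the glia of peripheral nerve. After an injury they leave the myelinating state, in which they make the proteins of compact myelin, and enter a repair state marked by the transcription factor Jun, by growth factors such as Gdnf and by adhesion molecules such as Ncam1. In the bridge between the stumps they migrate together with fibroblasts, macrophages and new vessels, lay down a basal lamina of laminin, collagen IV and perlecan, and return to the myelin programme once they have sorted and ensheathed axons. Conventional dendritic cells are immune cells that take up antigen in tissue and, on maturing, express Ccr7, Cd83 and high MHC class II on their way to the lymph node.

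Levels are CPM, counts relative to the total of the library, scaled between libraries by the trimmed mean of M values (TMM), and they can be compared between libraries but not between genes, since they are not divided by length. The libraries held 18433741 to 30796823 counts at day 5 and 11614940 to 29358569 at day 14, and the totals did not differ by an exact permutation test (2-sided p = 0.515). The 100 most abundant genes took 27.1% to 33.2% of the counts at day 5 and 22.9% to 30.5% at day 14 (exact permutation p = 0.0234, adjusted over 3 measures 0.0702). Xist was at least 45.4 CPM in each library labelled female and at most 0.252 CPM in each labelled male, and of 120 pairs of libraries 0 held the same counts.

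The label was checked against defining markers, and the data went against it. The 17 conventional dendritic cell markers summed to a median of 30971 CPM at day 5 and 32633 CPM at day 14, while the 15 Schwann cell markers summed to a median of 139 CPM and 1678 CPM, sums that are not divided by gene length. Sox10, the transcription factor that defines the lineage, lay between 0 and 83.6 CPM at day 5 (median 10.9) and between 14.5 and 137 CPM at day 14 (median 115). S100b itself ranged from 0 to 8.68 CPM at day 5 and from 2.95 to 44.4 CPM at day 14. Dendritic cell transcripts were abundant at both days. Cd74, the invariant chain of MHC class II, lay between 11602 and 23222 CPM at day 5 and between 8542 and 22552 CPM at day 14. Ccr7, the receptor that guides mature dendritic cells, ranged from 5937 to 11092 CPM and from 2206 to 8257 CPM, and Flt3, the receptor of dendritic cell development, from 397 to 937 CPM and from 274 to 501 CPM. In the macrophage libraries of the same animals Ccr7 did not exceed 68.6 CPM and Flt3 did not exceed 5.65 CPM. The libraries are therefore called the Schwann-labelled fraction below. Among the sort antigens, Cd3e reached 4.1 CPM and Thy1 3.52 CPM at most. The macrophage antigens were higher, with Emr1, which encodes F4/80, at 5.88 to 629 CPM at day 5 and 7.91 to 180 CPM at day 14, and Itgam, which encodes CD11b, at 32.6 to 500 CPM and 17.8 to 168 CPM. Cd14 ranged from 39.7 to 2219 CPM at day 5 and from 76.9 to 1736 CPM at day 14, and Pecam1, which encodes CD31, from 8.79 to 43.3 CPM and from 8.89 to 37.6 CPM.

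Marker sums placed a few libraries apart. The 18 macrophage markers summed to between 659 and 25208 CPM at day 5 (median 5428) and between 1458 and 8387 CPM at day 14 (median 3090). Replicates 7 and 9 of day 5, at 14475 and 25208 CPM, lay above every day 14 library. Skeletal muscle markers summed to 419 CPM in replicate 2 of day 14. The main counts are given with and without these libraries. At day 14 the Schwann cell markers summed to 349, 622 and 823 CPM in replicates 3, 8 and 7 and to at least 1678 CPM in the other 4 libraries. Those 3 libraries also held the highest sums of the mature dendritic cell markers at day 14, at 29617, 20883 and 27311 CPM against 9611 to 18287 CPM in the other 4.

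**Figure D1:**
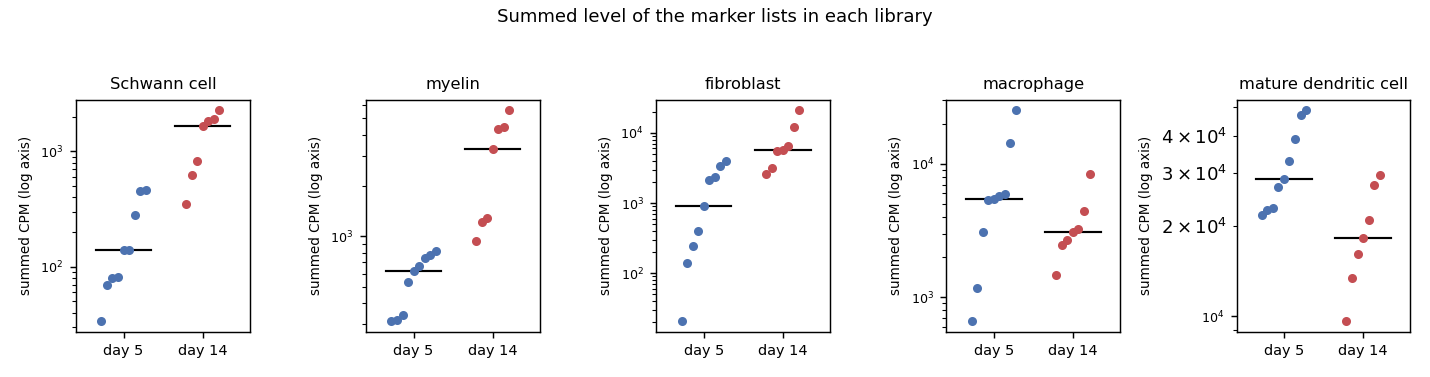
Summed CPM of 5 gene lists (log axes) in the 9 day 5 libraries (blue) and the 7 day 14 libraries (red), ordered by value, with bars at the medians. The sums of the myelin list did not overlap between the days, at 313 to 813 CPM against 937 to 5582 CPM, while the other 4 sums overlapped.

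Of 9961 genes tested, 806 differed between the days at an adjusted p under 0.05 (8.09%), 332 being higher at day 14 (3.33%) and 474 lower (4.76%). The test was edgeR's quasi-likelihood test with Benjamini-Hochberg adjustment. The median log2 fold change over all genes tested was 0.03. For 56 of the genes (0.562%) every day 14 library lay above every day 5 library, and for 68 (0.683%) every day 14 library lay below. With scaling to the library total alone, the median of all genes moved to 0.23 and 71.8% of 1005 called genes were higher, against 41.2% with TMM scaling. Without the 2 day 5 libraries highest in macrophage markers 443 genes passed, of which 416 were among the 806, and without the muscle-positive replicate 2 of day 14 the count was 361, with 356 shared. Since these are bulk samples, fewer cells of a type and less RNA per cell cannot be told apart for any of the genes below.

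**Figure D2:**
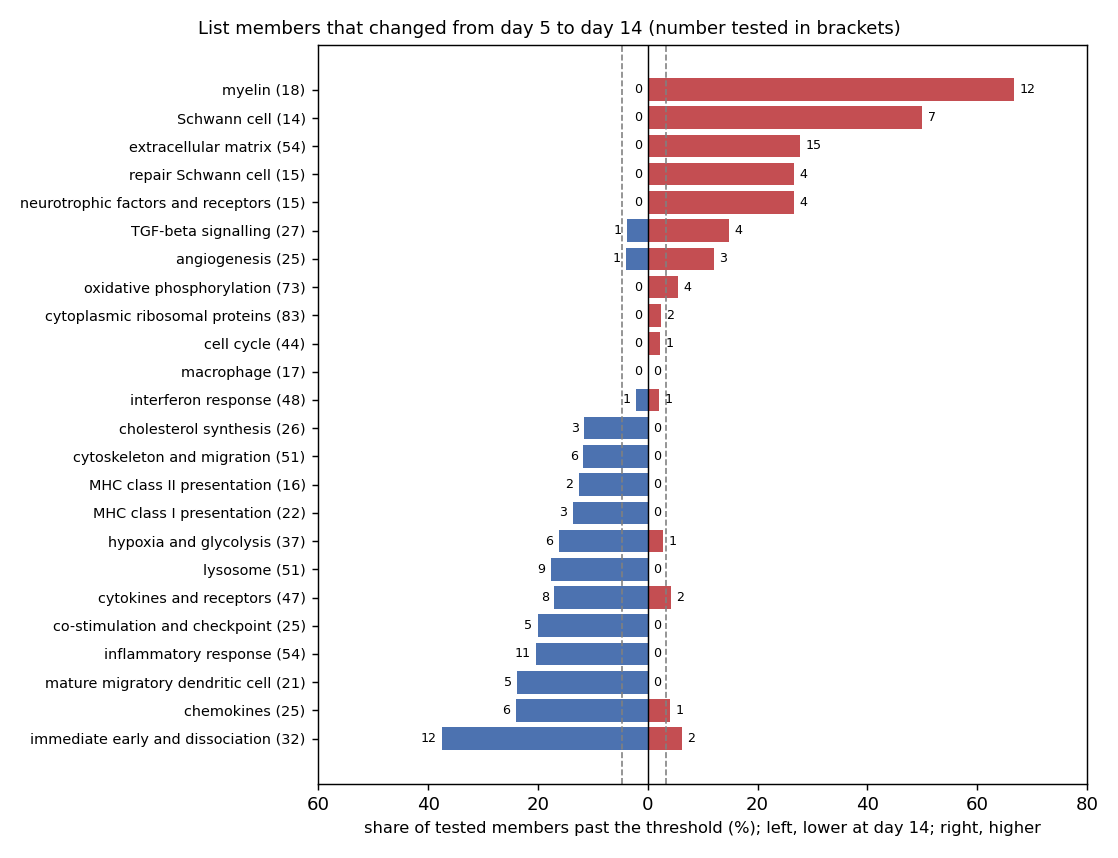
Share of the tested members of each gene list that passed the threshold (horizontal axis, %), with members lower at day 14 to the left and members higher to the right, and the number of members beside each bar. Dashed lines mark the shares over all genes tested, 4.76% lower and 3.33% higher. Myelin genes reached 12 of 18 members, all of them higher, and 12 of 32 immediate early and dissociation genes were lower.

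Genes of the myelin sheath were higher at day 14. Of 18 myelin genes tested, 12 were higher at day 14 (66.7%, beside 3.33% over all genes) and 0 lower, the other 6 not passing the test. The list's median log2 fold change was 2.84 against 0.03 over all genes. The summed level of the 25 listed genes lay between 313 and 813 CPM at day 5 (median 624) and between 937 and 5582 CPM at day 14 (median 3311). For 5 of the 18 genes every day 14 library lay above every day 5 library, beside 0.562% of all genes tested. The count was 10 without the 2 macrophage-rich libraries of day 5 and 9 without replicate 2 of day 14, and it ran from 8 to 12 when each library was left out in turn.

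Mbp, the cytoplasmic basic protein of myelin, lay at 81.6 to 234 CPM at day 5 (median 148) and at day 14 reached 107 to 1153 CPM (median 505). Its log2 fold change was 1.81 (SE 0.37, edgeR adjusted p = 0.0114), and 6 of 7 day 14 libraries lay above the day 5 median.

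Gjc3, a glial connexin, ranged from 0.642 to 6.68 CPM at day 5 and from 10.9 to 70.4 CPM at day 14, so that the groups did not overlap (log2 fold change 3.47, SE 0.48, edgeR adjusted p = 0.00206). Plekhb1 likewise did not overlap, at 4.06 to 40 CPM against 52.4 to 236 CPM (log2 fold change 3.21, SE 0.52, edgeR adjusted p = 0.00597). Pou3f1, also called Oct6 or SCIP, is the transcription factor of Schwann cells about to myelinate. It lay between 3.12 and 26.3 CPM (median 6.25) at day 5 and between 18.9 and 154 CPM (median 77.7) at day 14, with a log2 fold change of 2.84 (SE 0.53, edgeR adjusted p = 0.0101). Ncmap, a noncompact myelin protein, rose from at most 4.71 CPM to between 2.47 and 116 CPM. The calls of Mbp, Gjc3, Plekhb1 and Pou3f1 held in all 16 fits that left out 1 library. Ncmap reached the filter on low counts only through 6 day 14 libraries and was not tested without any of them, so that those fits say nothing of its call. Prx, the periaxin of the myelinating cell membrane, was singled out after its values were seen. It ran from 0 to 19.3 CPM and from 20.1 to 167 CPM, and its call held in 11 of 16 such fits.

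**Figure D3:**
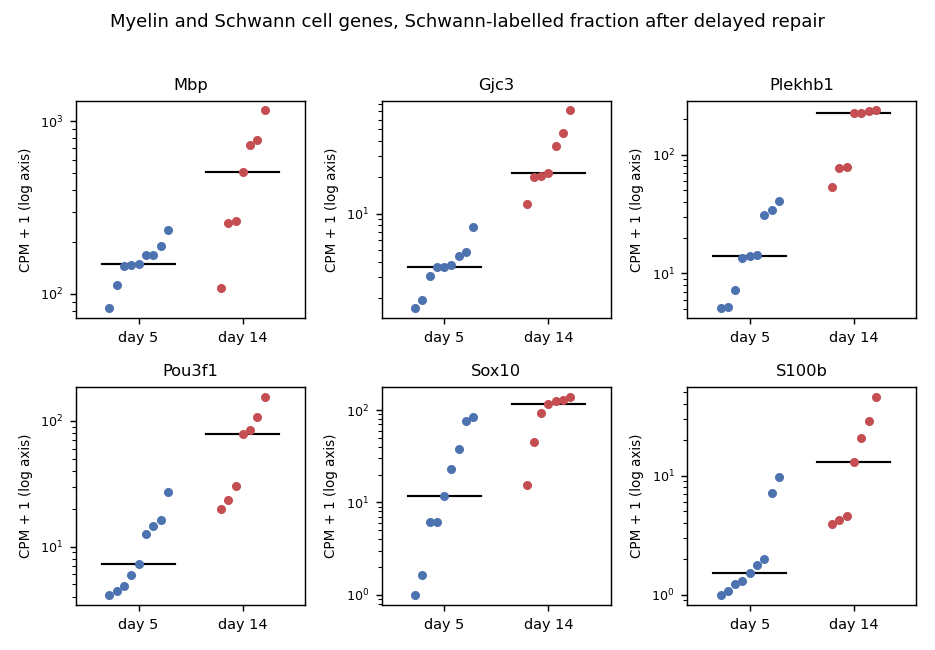
Level of 6 genes (CPM + 1, log axes) in each day 5 (blue, n = 9) and day 14 library (red, n = 7), ordered by value, with bars at the medians. Gjc3 and Plekhb1 did not overlap between the days. Sox10 and S100b were higher in median at day 14 but did not pass the test.

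Of 14 Schwann cell markers tested, 7 were higher (50%, beside 3.33% over all genes) and 0 lower, and the myelin list also holds 2 of the 7. The median log2 fold change was 2.98. The sum of the 15 markers had a median of 139 CPM at day 5 (33.6 to 461) and of 1678 CPM at day 14 (349 to 2270), and 6 of 7 day 14 libraries lay above every day 5 library. Without the macrophage-rich libraries of day 5 the count fell to 2, without replicate 2 of day 14 to 3. L1cam, an adhesion molecule of non-myelinating Schwann cells and axons, rose from 12.7 to 73.4 CPM to 31.8 to 171 CPM (log2 fold change 1.49, SE 0.39, edgeR adjusted p = 0.0305), a call that held in 9 of 16 fits with a library left out. Gpr37l1 went from at most 5.41 CPM to between 11.7 and 65 CPM (log2 fold change 4.16, SE 1.10, edgeR adjusted p = 0.0305, held in 12 of 16). The lineage markers themselves missed the threshold, Sox10 with a log2 fold change of 1.81 (SE 0.88, edgeR adjusted p = 0.196) and S100b with 3.04 (SE 1.02, edgeR adjusted p = 0.0726). S100b passed with DESeq2 (adjusted p = 0.0128) and with all 4 groups in 1 edgeR fit. Ngfr, the p75 neurotrophin receptor of immature and repair Schwann cells, had a log2 fold change of 0.69 (SE 0.78, edgeR adjusted p = 0.606).

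Members of the repair state followed a mixed course. Of 15 repair Schwann cell genes tested, 4 were higher (26.7%, beside 3.33% over all genes) and 0 lower, with a median log2 fold change of 0.69. Ncam1 was at 0 to 27.5 CPM at day 5 (median 4.19) and at 36.1 to 140 CPM at day 14 (median 82.9), with no overlap (log2 fold change 3.51, SE 0.90, edgeR adjusted p = 0.0278, held in 13 of 16 fits with a library left out). Gdnf, a survival factor for motor neurons, rose from 0 to 19.5 CPM (median 6.39) to 6.21 to 68.2 CPM (median 55.6), a log2 fold change of 2.54 (SE 0.70, edgeR adjusted p = 0.0371) that held in 8 of 16. Gfap, the intermediate filament of non-myelinating and denervated Schwann cells, rose by 4.34 (SE 1.23, edgeR adjusted p = 0.0385, held in 6 of 16), and Sox4 by 1.22 (SE 0.31, edgeR adjusted p = 0.0262, held in 14 of 16 and lost without day 14 replicate 2 or 6). Jun lay between 366 and 778 CPM at day 5 and between 382 and 801 CPM at day 14 and did not pass (log2 fold change -0.23, SE 0.17, edgeR adjusted p = 0.422). Gap43, a growth-associated protein, was at most 32.7 CPM at either day (log2 fold change 0.62, SE 0.90, edgeR adjusted p = 0.70). The 4 calls of the list were 0 without the macrophage-rich libraries and 0 without replicate 2 of day 14.

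Of 15 neurotrophic factors and receptors tested, 4 were higher (26.7%, beside 3.33% over all genes) and 0 lower, with Gdnf counted here as well. Ptn, the heparin-binding growth factor pleiotrophin, rose from at most 4.27 CPM (median 1.56) to between 1.42 and 54.1 CPM (median 20.3), a log2 fold change of 3.59 (SE 0.80, edgeR adjusted p = 0.016). Gfra2, the neurturin receptor, rose by 2.32 (SE 0.66, edgeR adjusted p = 0.039, held in 6 of 16 fits with a library left out). Il6st, the shared gp130 chain of the interleukin 6 family, rose from 109 to 201 CPM to 183 to 401 CPM (log2 fold change 0.72, SE 0.18, edgeR adjusted p = 0.0254, held in 13 of 16). The list's count was 1 without the macrophage-rich libraries. It was 0 of 13 tested without replicate 2 of day 14. Ptn reached the filter on low counts only through 6 day 14 libraries and was not tested there, so that its call was not checked in that fit.

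Some extracellular matrix genes rose. Of 54 tested, 15 were higher (27.8%, beside 3.33% over all genes) and 0 lower, and 39 did not pass. A positive fold change was seen in 46, and the median was 2.18. Hspg2, which encodes the basement membrane proteoglycan perlecan, lay between 1.44 and 17.8 CPM at day 5 (median 7.69) and between 13.2 and 92.6 CPM at day 14 (median 49.8), a log2 fold change of 2.78 (SE 0.50, edgeR adjusted p = 0.0083). Sparc, a secreted collagen-binding protein, rose from 6.54 to 716 CPM (median 239) to 685 to 3161 CPM (median 2407), a log2 fold change of 2.87 (SE 0.62, edgeR adjusted p = 0.0142). Lamc1, the laminin gamma 1 chain, rose by 1.87 (SE 0.43, edgeR adjusted p = 0.0174) and Timp3, a matrix-bound inhibitor of metalloproteinases, by 2.98 (SE 0.68, edgeR adjusted p = 0.0177). These 4 calls held in all 16 fits that left out a library.

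The summed fibroblast markers were higher in median at day 14. They came to between 20.6 and 3956 CPM at day 5 (median 897) and between 2600 and 20899 CPM at day 14 (median 5710), with 5 of 7 day 14 libraries above every day 5 library, and 6 of the 13 markers belong to the matrix list too. Col1a2, a chain of collagen I, lay between 1.86 and 727 CPM at day 5 (median 260) and between 660 and 3941 CPM at day 14 (median 1153). Its log2 fold change of 2.61 (SE 0.79, edgeR adjusted p = 0.0493) was the only call among 8 fibroblast markers tested (12.5%, beside 3.33% higher over all genes). That call held in 2 of 16 fits with a library left out. The other markers with high levels did not pass, Col1a1 with a log2 fold change of 2.55 (SE 0.82, edgeR adjusted p = 0.0605), Postn with 2.47 (SE 0.87, edgeR adjusted p = 0.0829) and Col3a1 with 2.35 (SE 0.99, edgeR adjusted p = 0.139). Col1a1 passed without day 5 replicate 3, day 5 replicate 4 or day 14 replicate 3 (edgeR adjusted p = 0.0476, 0.0439 and 0.0498) and Postn without day 5 replicate 4 (0.0459), and DESeq2 called both. Thy1, the antigen used to exclude fibroblasts, stayed at or below 3.52 CPM. The part of fibroblast RNA in the matrix counts was not tested. The matrix count was 6 without the macrophage-rich libraries and 5 without replicate 2 of day 14, and the list's median was then 1.91 and 2.16.

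Among all genes, those that rose with the smallest p came from several functions. Pmepa1, an inhibitor of TGF-beta and androgen signalling (chromosome 2, 173224458 to 173276731), lay between 6.43 and 29 CPM at day 5 (median 20.2) and between 69.3 and 269 CPM at day 14 (median 127), with a log2 fold change of 2.99 (SE 0.36, edgeR adjusted p = 0.00101). Itm2a, a small membrane protein, ranged from 0.898 to 19.1 CPM and from 37.6 to 240 CPM (log2 fold change 3.45, SE 0.48, edgeR adjusted p = 0.00232). Neither gene overlapped between the days. Nop58, a core protein of box C/D snoRNPs, rose from 13 to 30.6 CPM to 36.8 to 88.4 CPM (log2 fold change 1.62, SE 0.24, edgeR adjusted p = 0.00299), and Ltv1, a factor of small ribosomal subunit maturation, rose by 0.83 (SE 0.14, edgeR adjusted p = 0.0065). S1pr3, a receptor of sphingosine 1-phosphate, lay between 11.5 and 48.3 CPM (median 22.4) and between 40.5 and 313 CPM (median 124), a log2 fold change of 2.37 (SE 0.39, edgeR adjusted p = 0.0065).

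Further rises with a small p were those of Ranbp9, a scaffold protein (log2 fold change 1.74, SE 0.27, edgeR adjusted p = 0.0048), Treml4, a receptor of myeloid cells (2.07, SE 0.35, edgeR adjusted p = 0.00717), Yipf5, a protein of the early secretory pathway (0.63, SE 0.11, edgeR adjusted p = 0.00717), and Prnp, the prion protein (0.72, SE 0.12, edgeR adjusted p = 0.00737). Ranbp9, Treml4 and Yipf5 did not overlap between the days. The largest fitted rises belonged to genes close to absent at day 5. C1qtnf3 had 15 counts in 1 of the 9 day 5 libraries and 4992 counts over the 7 day 14 libraries, where it ran from 0.0773 to 55.5 CPM. Pcdh9, a protocadherin, went from at most 3.28 CPM to between 0.685 and 60.4 CPM. C1qtnf3 and Pcdh9 reached the filter on low counts only through day 14 libraries, the group where they are high. Each was tested in only 10 of the 16 fits with a library left out, so that the remaining fits say nothing of their calls. Cilp, Fndc1 and Prss12 also rose by more than 4 on the log2 scale, and the calls held in 2 of 10 fits with a library left out in which Cilp was tested, and in 14 and 13 of 16 for Fndc1 and Prss12.

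Dendritic cell genes did not move as a block. Of 17 conventional dendritic cell markers tested, 1 was higher and 2 lower (17.6% in all, beside 8.09% over all genes). The counts were 0 and 3 without the macrophage-rich libraries, and 0 and 2 without replicate 2 of day 14. The median log2 fold change of -0.14 turned to 0.04 with library size scaling and to 0.03 without replicate 2 of day 14. Cd74 and H2-Ab1, an MHC class II chain, had log2 fold changes of -0.05 (SE 0.21, edgeR adjusted p = 0.896) and -0.09 (SE 0.26, edgeR adjusted p = 0.855). Irf8, a transcription factor of type 1 dendritic cells, fell from 1523 to 2693 CPM (median 2044) to 578 to 1705 CPM (median 890), a log2 fold change of -1.11 (SE 0.20, edgeR adjusted p = 0.0083). Flt3 fell from a median of 630 CPM to 309 CPM (log2 fold change -0.87, SE 0.20, edgeR adjusted p = 0.0193), with 7 of 7 day 14 libraries below the day 5 median. Zbtb46, a transcription factor of conventional dendritic cells, did not pass (log2 fold change -0.55, SE 0.23, edgeR adjusted p = 0.141), though it did without day 14 replicate 3 (edgeR adjusted p = 0.0346).

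Of the type 1 dendritic cell markers 3 of 10 tested passed, 30% beside 8.09% over all genes. Xcr1, the chemokine receptor that marks these cells, rose from 2.86 to 19.7 CPM (median 8.84) to 3.94 to 80.6 CPM (median 40.1), a log2 fold change of 1.88 (SE 0.51, edgeR adjusted p = 0.0348) that held in 9 of 16 fits with a library left out. Cadm1, an adhesion molecule of these cells that glia and fibroblasts express as well, rose from a median of 54.5 CPM to 141 CPM (log2 fold change 1.34, SE 0.37, edgeR adjusted p = 0.0365, held in 8 of 16). With Irf8 counted, 2 members were higher and 1 lower, against 0 higher and 1 lower both without the macrophage-rich libraries and without replicate 2 of day 14. The summed level of this list had a median of 2348 CPM at day 5 (1824 to 2778) and of 1311 CPM at day 14 (885 to 2269), although the median member had a log2 fold change of 0.73. Of 9 plasmacytoid dendritic cell markers tested 1 passed, and it was lower (11.1%, beside 4.76% lower over all genes). All 9 had a negative fold change, with a median of -1.08. The list's sum had a median of 788 CPM at day 5 (381 to 1451) and of 371 CPM at day 14 (284 to 758). The marker that passed was Spib, a transcription factor of plasmacytoid dendritic cells and B cells. It fell from 149 to 333 CPM (median 208) to 9.97 to 126 CPM (median 72.9) with no overlap (log2 fold change -1.62, SE 0.37, edgeR adjusted p = 0.0173).

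Some markers of the mature, migratory state fell. Of 21 tested, 5 were lower (23.8%, beside 4.76% over all genes) and 0 higher, and 16 did not pass. A negative fold change was seen in 20, and the median was -0.77. The summed level lay between 21824 and 48642 CPM at day 5 (median 28725) and between 9611 and 29617 CPM at day 14 (median 18287). Cd83, a surface protein of mature dendritic cells, fell from 3469 to 6868 CPM (median 4081) to 1599 to 4253 CPM (median 2772), a log2 fold change of -0.85 (SE 0.23, edgeR adjusted p = 0.033) that held in 9 of 16 fits with a library left out. Cd274, which encodes the checkpoint ligand PD-L1, fell by 0.99 on the log2 scale (SE 0.24, edgeR adjusted p = 0.0214, lost without day 14 replicate 2, where the adjusted p was 0.0517). Cd200, an inhibitory ligand for myeloid cells, fell from 764 to 2819 CPM (median 1292) to 158 to 980 CPM (median 635), a log2 fold change of -1.18 (SE 0.32, edgeR adjusted p = 0.0359) that held in 9 of 16. Ccr7 itself did not pass (log2 fold change -0.77, SE 0.25, edgeR adjusted p = 0.066), though it did without day 14 replicate 3 (-0.96, edgeR adjusted p = 0.0185) and with DESeq2. The list's count was 2 without the macrophage-rich libraries of day 5 and 0 without replicate 2 of day 14.

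In the MHC class II list 2 of 16 genes were lower (12.5%, beside 4.76% lower over all genes) and 0 higher, both of them lysosomal proteases, Lgmn (log2 fold change -0.89, SE 0.24, edgeR adjusted p = 0.0336, held in 9 of 16 fits with a library left out) and Ctsl (-1.78, SE 0.50, edgeR adjusted p = 0.0379, held in 7 of 16). That count was 0 without replicate 2 of day 14. For MHC class I, 3 of 22 were lower (13.6%) and 0 higher, against 2 lower and 2 higher with library size scaling and 1 lower without replicate 2 of day 14. Tap2, a subunit of the peptide transporter, fell from 315 to 530 CPM to 186 to 318 CPM (log2 fold change -0.63, SE 0.14, edgeR adjusted p = 0.016). Tapbpl, a peptide editor, and H2-M3, a non-classical class I chain, fell by 0.99 and by 0.60, and both calls were lost without day 14 replicate 2, with edgeR adjusted p of 0.0517 and 0.0598. Of 25 co-stimulation and checkpoint genes 5 were lower (20%) and 0 higher, 3 of which the mature dendritic cell list also holds. The other 2 were Tnfrsf4, the OX40 receptor (log2 fold change -1.16, SE 0.28, edgeR adjusted p = 0.0222), and Tnfsf9, the 4-1BB ligand (-0.79, SE 0.21, edgeR adjusted p = 0.0348, held in 8 of 16). The count of this list was 2 without the macrophage-rich libraries, 1 without replicate 2 of day 14 and 0 with the replicate block.

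Among the chemokines that passed, most fell. Of 25 tested, 6 were lower and 1 higher (28% in all, beside 8.09% over all genes), and 18 did not pass. The median log2 fold change was -0.82. Cxcl16, a membrane-bound ligand of Cxcr6, fell from 1112 to 2574 CPM (median 1464) to 473 to 1047 CPM (median 590) without overlap (log2 fold change -1.30, SE 0.23, edgeR adjusted p = 0.00786). Pf4, a chemokine of platelets that macrophages also make, fell from 41 to 1052 CPM (median 225) to 2.7 to 49.5 CPM (median 16.5), a log2 fold change of -4.20 (SE 0.81, edgeR adjusted p = 0.0105). Its neighbour Ppbp fell by 4.13 (SE 1.14, edgeR adjusted p = 0.0355, held in 10 of 16 fits with a library left out) and Ccl8, a monocyte attractant, by 4.09 (SE 0.97, edgeR adjusted p = 0.0198). Cxcl3, a neutrophil attractant, fell from 114 to 1285 CPM (median 623) to 39.3 to 216 CPM (median 116), a log2 fold change of -2.36 (SE 0.54, edgeR adjusted p = 0.0179), and Ccl4 fell by 1.86 (SE 0.44, edgeR adjusted p = 0.0198). Cxcl14, chosen after its values were seen as the 1 chemokine that rose, went from at most 12.7 CPM to between 28.9 and 52.7 CPM (log2 fold change 2.54, SE 0.61, edgeR adjusted p = 0.0209). Of 14 chemokine receptors 1 was higher, Xcr1, and 1 lower, Cxcr4 (14.3% in all, beside 8.09% over all genes). Cxcr4 fell by 1.31 (SE 0.36, edgeR adjusted p = 0.0366, held in 9 of 16). In this list 0 passed without the macrophage-rich libraries or without replicate 2 of day 14. The chemokine count was 1 higher and 3 lower without the macrophage-rich libraries of day 5, and 1 higher and 5 lower without replicate 2 of day 14.

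Some cytokine and inflammatory genes fell. Of 47 cytokines and receptors 8 were lower and 2 higher (21.3% in all, beside 8.09% over all genes) and 37 did not pass. Library size scaling gave 7 lower and 4 higher. Without the macrophage-rich libraries 6 were lower and 0 higher, without replicate 2 of day 14 5 were lower and 0 higher, and 5 to 16 passed with a library left out. Il7r, the interleukin 7 receptor, fell from 212 to 477 CPM (median 268) to 72.2 to 199 CPM (median 153) with no overlap (log2 fold change -1.12, SE 0.22, edgeR adjusted p = 0.0105), as did Il4ra (-0.86, SE 0.18, edgeR adjusted p = 0.0122). Tnfrsf1b, a TNF receptor, fell by 1.14 (SE 0.24, edgeR adjusted p = 0.0121) and Osm, oncostatin M, by 1.41 (SE 0.34, edgeR adjusted p = 0.0204). In the inflammatory response list 11 of 54 genes were lower (20.4%, beside 4.76% over all genes) and 0 higher, and 43 did not pass. A negative fold change was seen in 44, and the median was -0.67. Ptgs2, the inducible cyclooxygenase, fell from 234 to 1240 CPM (median 838) to 101 to 388 CPM (median 223), a log2 fold change of -1.66 (SE 0.35, edgeR adjusted p = 0.0134). The inflammatory count was 6 without the macrophage-rich libraries and 4 without replicate 2 of day 14.

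Promoters of this group were read because many inflammatory genes are targets of NF-kB, and Cxcl3 and Nfkbia, the inhibitor that NF-kB induces, are shown as examples that hold its consensus. Nfkbia was chosen after its values were seen and fell from a median of 2263 CPM (1807 to 2874) to 1448 CPM (1181 to 2122), a log2 fold change of -0.55 (SE 0.16, edgeR adjusted p = 0.0393, held in 6 of 16 fits with a library left out). Each sequence is the 250 bases before the transcript start on the gene's strand (RefSeq, GRCm38.p6), with matches in capitals. Cxcl3 lies at chr5:90785851-90786100 on the plus strand and Nfkbia at chr12:55492648-55492897 on the minus strand.
Cxcl3: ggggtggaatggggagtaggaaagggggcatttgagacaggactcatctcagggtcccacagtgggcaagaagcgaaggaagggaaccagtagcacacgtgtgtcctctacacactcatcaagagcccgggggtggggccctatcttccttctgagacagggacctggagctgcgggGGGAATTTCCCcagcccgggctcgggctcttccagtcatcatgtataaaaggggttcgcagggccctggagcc
Nfkbia: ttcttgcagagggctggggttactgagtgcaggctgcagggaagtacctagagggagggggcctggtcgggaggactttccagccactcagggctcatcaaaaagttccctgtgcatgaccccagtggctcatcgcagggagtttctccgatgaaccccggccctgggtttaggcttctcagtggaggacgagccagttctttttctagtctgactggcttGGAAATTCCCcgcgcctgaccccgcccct
The NF-kB consensus of 10 bases was searched on both strands. Cxcl3 holds 2 matches that overlap, starting 73 and 72 bases before the start, and Nfkbia holds 1, at 29 bases. Of the 11 inflammatory genes that fell, 6 were in the promoter table and 3 of these held a match, Tnfaip3 being the third. Over all 32851 promoters of that length the share was 7.25%, over the 7529 tested genes with a promoter 11%, and over the 359 genes lower at day 14 that had a promoter 13.4%. A match describes these letters and was not tested as a binding site.

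**Figure D4:**
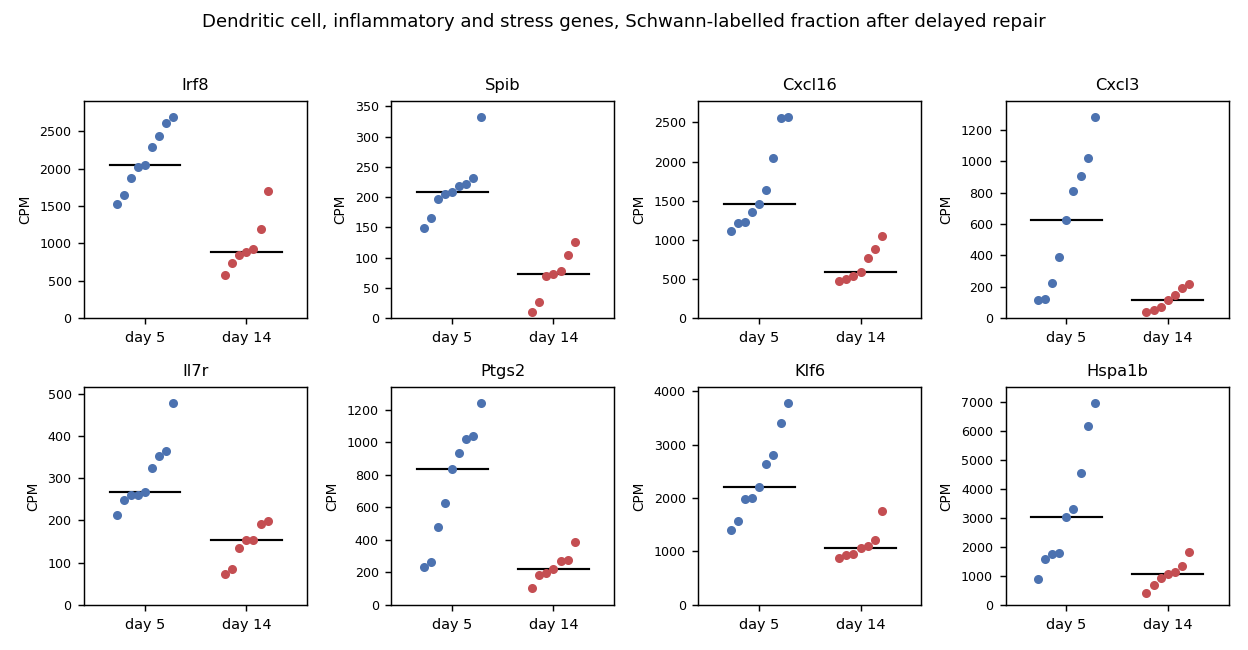
Level of 8 genes (CPM, linear axes from 0) in each day 5 (blue, n = 9) and day 14 library (red, n = 7), ordered by value, with bars at the medians. Spib, Cxcl16 and Il7r did not overlap between the days, while Irf8, Cxcl3, Ptgs2, Klf6 and Hspa1b did.

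Immediate early genes and genes known to respond to tissue dissociation were mostly lower at day 14 among those that changed. Of 32 tested, 12 were lower and 2 higher (43.8% in all, beside 8.09% over all genes). The list's sum lay between 21415 and 48072 CPM at day 5 (median 29185) and between 16214 and 25306 CPM at day 14 (median 22115). Klf6, a zinc finger factor induced by injury, fell from 1395 to 3773 CPM (median 2212) to 886 to 1750 CPM (median 1061), a log2 fold change of -1.10 (SE 0.21, edgeR adjusted p = 0.0105). Nr4a3, an orphan nuclear receptor, fell by 1.21 (SE 0.26, edgeR adjusted p = 0.0134) and Dnajb1, a co-chaperone of Hsp70, by 1.07 (SE 0.22, edgeR adjusted p = 0.0114). Myc went the other way. It rose from 7.33 to 74.6 CPM (median 27.8) to 59.2 to 276 CPM (median 141), a log2 fold change of 2.13 (SE 0.43, edgeR adjusted p = 0.0111). The counts were 3 higher and 6 lower without the macrophage-rich libraries, and 1 higher and 4 lower without replicate 2 of day 14. Whether handling of the tissue differed between the days was not tested.

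Heat shock genes of this list, chosen after their values were seen, split. Hspa1a and Hspa1b, which encode inducible Hsp70, are near-identical copies whose reads may be shared, so their values are uncertain as single genes. Hspa1b lay between 879 and 6960 CPM at day 5 (median 3036) and between 416 and 1818 CPM at day 14 (median 1069), a log2 fold change of -1.66 (SE 0.41, edgeR adjusted p = 0.0248) that was lost without day 14 replicate 2, at 0.0588. Hspa1a fell by 1.49 (SE 0.42, edgeR adjusted p = 0.0379, held in 8 of 16 fits with a library left out). Hspb1, a small heat shock protein, rose from 4.49 to 67.5 CPM to 25.8 to 356 CPM (log2 fold change 1.89, SE 0.50, edgeR adjusted p = 0.0304, held in 13 of 16). Their promoters are shown because genes that moved in opposite directions hold the same motif, GAANNTTC, the core of the heat shock element, in capitals below. Hspa1a lies at chr17:34972157-34972406 and Hspa1b at chr17:34959239-34959488, both on the minus strand, and Hspb1 at chr5:135887669-135887918 on the plus strand.
Hspa1a: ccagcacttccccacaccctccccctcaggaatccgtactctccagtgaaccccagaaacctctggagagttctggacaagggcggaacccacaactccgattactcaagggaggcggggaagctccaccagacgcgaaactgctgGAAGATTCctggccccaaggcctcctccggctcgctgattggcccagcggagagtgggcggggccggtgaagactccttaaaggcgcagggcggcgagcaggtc
Hspa1b: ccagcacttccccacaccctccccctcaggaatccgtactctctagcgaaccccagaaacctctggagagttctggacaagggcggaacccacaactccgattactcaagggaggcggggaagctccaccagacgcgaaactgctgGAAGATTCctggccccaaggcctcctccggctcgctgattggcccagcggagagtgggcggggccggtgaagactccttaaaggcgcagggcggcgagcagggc
Hspb1: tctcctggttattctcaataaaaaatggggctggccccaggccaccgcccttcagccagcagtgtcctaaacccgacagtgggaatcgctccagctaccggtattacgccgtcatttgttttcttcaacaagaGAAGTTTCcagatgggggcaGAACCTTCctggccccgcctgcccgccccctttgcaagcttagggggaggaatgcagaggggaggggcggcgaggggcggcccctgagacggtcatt
The motif was searched on both strands, and it reads the same on either. Hspa1a and Hspa1b each hold 1 match, starting 104 bases before the transcript start, and their windows differ at 3 of 250 bases. Hspb1 holds 2, starting at 117 and 97 bases. In the window of Dnajb1 these letters were not found. Of the 14 changed genes of the list, 12 were in the promoter table and these 3 held a match, against 6.69% of all 32851 promoters and 6.27% of the 7529 tested genes.

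All 17 macrophage markers tested had a negative fold change but none passed, with 0 calls also in every fit that left out a library. The median log2 fold change was -1.26, and -0.35 without the 2 macrophage-rich libraries of day 5. Apoe lay between 156 and 10181 CPM at day 5 and between 346 and 1285 CPM at day 14 (log2 fold change -1.42, SE 0.67, edgeR adjusted p = 0.187). Lyz2 had -0.58 (SE 0.65, edgeR adjusted p = 0.607). At an unadjusted p under 0.05, 6 of the 17 were lower, and DESeq2 called 2. Folr2, a folate receptor that macrophages express and that is not in the marker list, fell by 3.30 (SE 0.77, edgeR adjusted p = 0.0187). In the macrophage libraries of the same animals the day 5 median of Pf4 was 1826 CPM.

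Some lysosomal genes fell. Of 51 tested, 9 were lower (17.6%, beside 4.76% over all genes) and 0 higher and 42 did not pass, with 43 negative and a median of -0.38. Mcoln1, a lysosomal calcium channel, fell from 50.5 to 76.7 CPM to 27.6 to 42.6 CPM without overlap (log2 fold change -0.80, SE 0.13, edgeR adjusted p = 0.00597). The cathepsins Ctsh and Ctsz fell by 0.85 (SE 0.18, edgeR adjusted p = 0.0134) and 0.76 (SE 0.17, edgeR adjusted p = 0.0159), and Gla, alpha-galactosidase A, by 1.14 (SE 0.27, edgeR adjusted p = 0.0193). Ctsh ran from 680 to 1071 CPM at day 5 and from 326 to 819 CPM at day 14. The count was 5 without the macrophage-rich libraries of day 5 and 4 without replicate 2 of day 14.

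Of 37 glycolysis and hypoxia genes 6 were lower and 1 higher (18.9% in all, beside 8.09% over all genes). The counts were 4 lower and 1 higher without the macrophage-rich libraries and 3 lower and 1 higher without replicate 2 of day 14, and 4 to 10 genes passed when each library was left out in turn. Ddit4, a stress-induced inhibitor of mTORC1, fell by 1.15 (SE 0.22, edgeR adjusted p = 0.0103). Pfkfb3, which drives glycolytic flux, fell from 626 to 1273 CPM (median 846) to 266 to 636 CPM (median 423), a log2 fold change of -1.004 (SE 0.20, edgeR adjusted p = 0.0114), and Gapdh fell by 0.64 (SE 0.15, edgeR adjusted p = 0.0179) without overlap. Egln1, the oxygen-sensing prolyl hydroxylase, rose by 1.54 (SE 0.34, edgeR adjusted p = 0.0154). In cholesterol synthesis 3 of 26 genes were lower (11.5%, beside 4.76% over all genes) and 0 higher. They were led by Pmvk, phosphomevalonate kinase (log2 fold change -1.37, SE 0.31, edgeR adjusted p = 0.0177). The cholesterol count was 1 lower and 1 higher with library size scaling, 0 lower and 1 higher with the replicate block, and 1 to 9 genes with a library left out. Of 51 cytoskeleton and migration genes 6 were lower (11.8%, beside 4.76% over all genes) and 0 higher, although 4 were higher and 4 lower with library size scaling. The 6 include Cap1, whose level went with the animal, as described below. Without replicate 2 of day 14 the count was 3, and it ran from 3 to 10 with a library left out. Rhoa and Pfn1, which act on actin, fell by 0.68 (SE 0.13, edgeR adjusted p = 0.0105) and 0.57 (SE 0.12, edgeR adjusted p = 0.0129), both without overlap, and Ezr by 0.63 (SE 0.15, edgeR adjusted p = 0.0204).

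Of 83 cytoplasmic ribosomal protein genes 2 were higher (2.41%), of 73 oxidative phosphorylation genes 4 (5.48%), and 0 lower in either, beside 3.33% higher over all genes. Their medians were 0.09 and 0.22. With library size scaling the counts became 16 and 22, and both were 0 without the macrophage-rich libraries and 0 without replicate 2 of day 14. With a library left out in turn they ran from 0 to 5 and from 0 to 12. Rpl5 had a log2 fold change of 0.49 (SE 0.14, edgeR adjusted p = 0.04, held in 5 of 16 fits with a library left out), and Ndufa4 and Ndufb11, which belong to the respiratory chain, had 0.60 (SE 0.16, edgeR adjusted p = 0.0283) and 0.70 (SE 0.19, edgeR adjusted p = 0.0351), held in 12 and 8. Of 44 cell cycle genes 1 was higher, Cks2, named after its values were seen, and 0 lower (2.27%, not above the 3.33% higher over all genes). Without the macrophage-rich libraries 0 of 42 tested passed, and 0 of 42 without replicate 2 of day 14. Mki67 and Top2a, markers of dividing cells, had log2 fold changes of 0.44 (SE 0.37, edgeR adjusted p = 0.474) and 0.76 (SE 0.65, edgeR adjusted p = 0.479). Of 26 genes of the unfolded protein response 0 passed with edgeR, 6 had an unadjusted p under 0.05 and DESeq2 called 2. Of 48 interferon response genes 1 rose, Gbp3 (log2 fold change 1.17, SE 0.24, edgeR adjusted p = 0.0114), and 1 fell, Isg15 (-1.07, SE 0.29, edgeR adjusted p = 0.0338, held in 8 of 16), a share of 4.17% that does not exceed the 8.09% over all genes.

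In the TGF-beta list 4 of 27 genes were higher and 1 lower (18.5% in all, beside 8.09% over all genes), against 2 higher and 1 lower both without the macrophage-rich libraries and without replicate 2 of day 14. From 3 to 8 passed with a library left out, and DESeq2 called 5 higher and 4 lower. Ltbp3, which holds latent TGF-beta in the matrix, rose from a median of 12 CPM to 82.7 CPM (log2 fold change 2.37, SE 0.54, edgeR adjusted p = 0.0166). Ski, a repressor of Smad signalling, rose by 2.42 (SE 0.60, edgeR adjusted p = 0.0244, lost without day 14 replicate 1, at 0.0513) and Acvr1, a type I receptor, by 1.56 (SE 0.38, edgeR adjusted p = 0.0222, lost without day 14 replicate 2, at 0.0505). Tgif1, a homeobox repressor, fell by 0.71 (SE 0.15, edgeR adjusted p = 0.0123). Of 25 angiogenesis genes 3 were higher and 1 lower (16%), against 2 higher and 0 lower both without the macrophage-rich libraries and without replicate 2 of day 14. Ets1 rose by 1.53 (SE 0.29, edgeR adjusted p = 0.0103), Fgfr1 by 1.88 (SE 0.43, edgeR adjusted p = 0.0169) and Hbegf by 1.66 (SE 0.42, edgeR adjusted p = 0.027, lost without day 14 replicate 2 or 6), while Eng, endoglin, fell by 1.25 (SE 0.33, edgeR adjusted p = 0.0307, held in 10 of 16).

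Complement and axon guidance genes completed the groups. Of 17 complement genes, C4b rose by 2.35 (SE 0.54, edgeR adjusted p = 0.017) and Cd59a, which blocks the terminal complex, by 2.33 (SE 0.56, edgeR adjusted p = 0.0214), while C3ar1, the C3a receptor, fell by 2.01 (SE 0.52, edgeR adjusted p = 0.0291, held in 12 of 16 fits with a library left out). These calls were 17.6% of the complement list, beside 8.09% over all genes. The complement count was 1 higher and 0 lower without the macrophage-rich libraries and 2 higher and 0 lower without replicate 2 of day 14. Of 30 axon guidance genes, L1cam rose and Plxnd1, a semaphorin receptor, fell by 1.11 (SE 0.28, edgeR adjusted p = 0.0269, held in 13 of 16). These 2 genes are 6.67% of the list, not above the 8.09% over all genes. In the endothelial, mural, T cell, NK, B cell, neutrophil, mast cell and perineurial lists 0 of 28 genes tested passed with edgeR, 4 had an unadjusted p under 0.05 and DESeq2 called 2. Their sums were at most 757 CPM in any library, the mast cell list being the highest.

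Among all genes, those that fell with the smallest p were receptors, enzymes and genes of other functions. Ptafr, the receptor of platelet-activating factor (chromosome 4, 132564067 to 132582683), had the smallest adjusted p of the comparison. It lay between 126 and 231 CPM at day 5 (median 164) and between 25.9 and 70.7 CPM at day 14 (median 52.7), a log2 fold change of -1.78 (SE 0.20, edgeR adjusted p = 0.000885). Apobec3, a cytidine deaminase that restricts retroviruses, fell from 104 to 266 CPM (median 229) to 16.4 to 84 CPM (median 27.8), a log2 fold change of -2.33 (SE 0.35, edgeR adjusted p = 0.00345). Gpr4, a proton-sensing receptor, fell from 29 to 133 CPM (median 52.9) to 3.86 to 20.1 CPM (median 17), a log2 fold change of -2.25 (SE 0.37, edgeR adjusted p = 0.0065). Nhlrc2 fell from 147 to 324 CPM (median 189) to 62.4 to 122 CPM (median 73.8), a log2 fold change of -1.37 (SE 0.19, edgeR adjusted p = 0.00206). None of these 4 genes overlapped between the days.

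A further 7 genes with small p fell with the same regularity, and all but Gstt1 and Slc15a4 showed no overlap. They were Grasp, a scaffold of metabotropic receptors (log2 fold change -1.85, SE 0.25, edgeR adjusted p = 0.00206), A530032D15Rik (-1.74, SE 0.23, edgeR adjusted p = 0.00206), Gstt1, a glutathione transferase (-2.56, SE 0.36, edgeR adjusted p = 0.00242), Nrde2 (-1.60, SE 0.24, edgeR adjusted p = 0.00299), Pold1, the catalytic subunit of DNA polymerase delta (-1.31, SE 0.20, edgeR adjusted p = 0.00398), Cd38, an NAD-consuming ectoenzyme (-1.83, SE 0.29, edgeR adjusted p = 0.00597), and Slc15a4, a lysosomal transporter (-0.72, SE 0.12, edgeR adjusted p = 0.0065). Hand1, a transcription factor of heart and trophoblast (chromosome 11, 57828713 to 57832147), had no counts in the 7 day 14 libraries and 3820 counts in 8 of the 9 day 5 libraries. At day 5 it ranged from 0 to 62.5 CPM (median 18.1). Against a floor of 3 counts over the day 14 group it was at least 1058-fold lower at day 14. That bound pools the libraries and treats amplified reads as separate counts, so it covers counting error only and not the spread between animals.

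Cap1, which encodes an actin-cycling protein, had a log2 fold change of -1.79 (SE 0.44, edgeR adjusted p = 0.0236, lost without day 14 replicate 2 or 6). Its values fell at separate levels within each day. At day 5 it was at 206 to 319 CPM in 7 libraries and at 48.6 and 52.2 CPM in replicates 8 and 7, and at day 14 it was at 176 CPM in replicate 1 and at 34.4 to 50 CPM in the other 6. The macrophage library of each animal lay on the same side of 100 CPM in 16 of 16 animals, so that the level went with the animal and the days differed in how many animals lay on each side.

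The same interval was then read after immediate repair, to ask whether a delay changed the course. With 15 libraries of animals repaired at once, 393 of 10016 genes passed (3.92%), 73 higher (0.729%) and 320 lower (3.19%). Of the genes that rose after delayed repair 326 were tested here, and 31 of them rose (9.51% of the delayed and 43.1% of the immediate calls). Of 473 that fell after delayed repair, 172 fell here (36.4% and 53.8%). The fold change had the same sign in 291 of the 326 and in 462 of the 473. By the test of the difference between the repair groups, 0 of 10923 genes passed with edgeR (0.00%), 542 at an unadjusted p under 0.05. DESeq2 called 9 genes, and 665 had an unadjusted p under 0.05. The 9 were Pmepa1, Serpina3n, Hand1, S100a8, Ccl24, Csf2, Ereg, Mmp3 and Tnn. The last 5 had fitted log2 differences of -19 to -24.9, too large to be read as sizes. S100a8 had a median of 1.66 CPM and a maximum of 4465 CPM at day 14 after immediate repair.

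For myelin genes the difference between the repair groups passed the edgeR test in no case. After immediate repair 0 of 15 myelin genes passed with edgeR, 2 had an unadjusted p under 0.05, and the list's median was 0.37, against 2.84 after the delay. Mbp lay between 143 and 484 CPM at day 5 and between 84.8 and 567 CPM at day 14 after immediate repair, a log2 fold change of -0.28 (SE 0.39, edgeR adjusted p = 0.771). The difference between the repair groups was 2.12 (SE 0.55, edgeR adjusted p = 0.643). Pou3f1 had 0.02 (SE 0.45) after immediate repair and a difference of 2.83 (SE 0.71, edgeR adjusted p = 0.643). Of the 54 matrix genes 7 were higher after immediate repair, with a median of 1.04, and 15 after the delay.

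The genes with the smallest p for the difference were Pmepa1 (2.35, SE 0.49, edgeR adjusted p = 0.404) and Serpina3n, an acute phase protease inhibitor (5.18, SE 1.13, edgeR adjusted p = 0.404). Serpina3n lay between 0 and 6.29 CPM at day 5 and between 18.3 and 80.1 CPM at day 14 after delayed repair, and between 3.35 and 168 CPM and between 4.11 and 35.1 CPM after immediate repair. Klf9, Ranbp9 and Acvr1 had differences of 1.92, 2.17 and 1.87, each with an adjusted edgeR p of 0.643. Gap43 went the other way, with a rise after immediate repair (log2 fold change 5.02, SE 0.95, edgeR adjusted p = 0.00891) and a difference of -4.39 (SE 1.34, edgeR adjusted p = 0.649). The falls were closer in size. Irf8, Spib, Cxcl16, Il7r and Klf6 fell by 1.23, 1.43, 1.17, 1.04 and 1.15 after immediate repair, all past the threshold of edgeR.

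Macrophages sorted from the same delayed bridges were read over the same interval. In these libraries 540 of 8529 genes passed (6.33%), 278 higher (3.26%) and 262 lower (3.07%). Of 227 genes that rose in the Schwann-labelled fraction and were tested in macrophages 26 were called higher in both. Of 435 that fell 45 were called lower in both, while 4 and 15 were called in the opposite direction. The fold change in macrophages had the same sign in 156 of the 227 and in 286 of the 435. The test of the difference between the fractions, with the animal as a block, called 461 of 10353 genes (4.45%), 104 with a higher and 357 with a lower change in the Schwann-labelled fraction.

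MHC class II marked that contrast. In macrophages 6 of 12 class II genes tested were higher and 0 lower, with a median of 1.42, and Cd74 rose from 1603 to 3743 CPM to 5076 to 13868 CPM (log2 fold change 1.81, SE 0.21, edgeR adjusted p = 3.74e-05). The difference from the Schwann-labelled fraction was -1.93 for Cd74 (SE 0.30, edgeR adjusted p = 0.00283) and passed for 6 of 16 class II genes. Cd200 rose in macrophages by 1.39 (SE 0.37, edgeR adjusted p = 0.0316) and fell in the Schwann-labelled fraction, a difference of -2.69 (SE 0.30, edgeR adjusted p = 0.000366). S1pr3 and Prnp differed by 2.57 (SE 0.40, edgeR adjusted p = 0.00283) and 1.36 (SE 0.21, edgeR adjusted p = 0.00283), and Ets1 by 2.25 (SE 0.36, edgeR adjusted p = 0.00313). Prnp fell in macrophages by 0.73 (SE 0.18, edgeR adjusted p = 0.0197). Some falls passed in both fractions. Apobec3 fell in macrophages by 1.17 (SE 0.22, edgeR adjusted p = 0.00306), less than in the Schwann-labelled fraction, with a difference of -1.28 (SE 0.20, edgeR adjusted p = 0.00283). Pfkfb3 fell in macrophages by 0.99 (SE 0.20, edgeR adjusted p = 0.00498) and Gapdh by 0.83 (SE 0.14, edgeR adjusted p = 0.00128). Pmepa1 rose in both, by 1.90 in macrophages (SE 0.40, edgeR adjusted p = 0.00658).

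**Figure D5:**
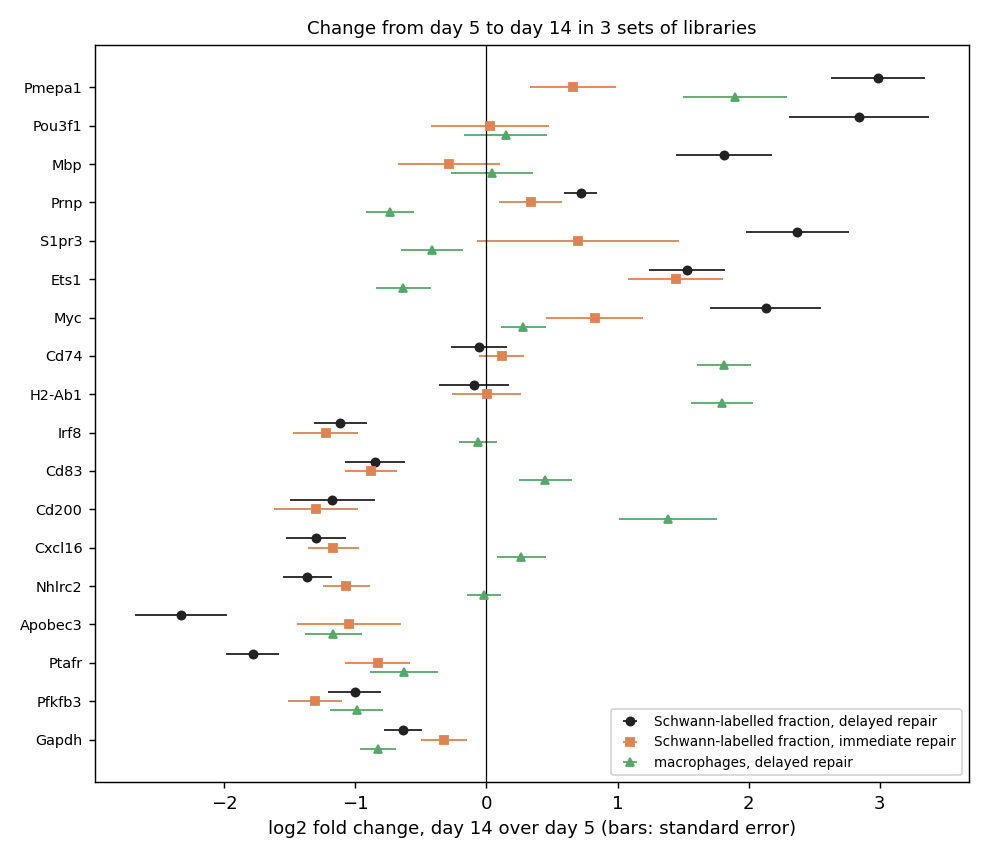
Log2 fold change of day 14 over day 5 (horizontal axis) for 18 genes in the Schwann-labelled fraction after delayed repair (black circles), after immediate repair (orange squares) and in macrophages after delayed repair (green triangles), with bars of 1 standard error. Cd74 rose by 1.81 in macrophages and was near 0 in both Schwann-labelled sets, while Pou3f1 and Mbp passed the test after the delay, and their difference between the repair groups did not.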

How the data were processed

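RNA of sorted cells from single bridges was amplified with SMART-Seq v4 and sequenced. The authors deposited 1 table of estimated counts per gene for each cell type. The submitters' processing notes name cutadapt 1.8, TopHat2 2.1.1, Cufflinks 2.2.1 and Cuffnorm with mm10, and the program that wrote the counts is not given in the sources used here. Of the deposited values 0.951% were not whole, and these were rounded. Groups came from the sample labels. Amplified reads carry no molecular identifiers, so duplicates of a molecule count as separate reads, and genes are compared at depths of 11614940 to 30796823 counts.

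Genes at 5 CPM or more in at least 6 animals were tested with edgeR 4.0.16 (R 4.3.3, TMM scaling, robust quasi-likelihood test, no covariates) on the libraries of the groups compared, with Benjamini-Hochberg adjustment and a threshold of 0.05. Standard errors (SE) were taken from the F statistic, as the size of the log2 change over its root. The difference between repair groups was an interaction term, and that between fractions was fitted within animals. Exact permutation tests over libraries were 2-sided. The alternatives were DESeq2 1.42.0, limma 3.58.1 (voom), other scalings and filters, sex, a replicate block and each library left out. Leaving out the 2 macrophage-rich libraries or replicate 2 of day 14 for its muscle transcripts, and the 14 animals without a block, were chosen after seeing the data. The models were tested on simulated data.

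The genes named are the sort antigens, the 12 genes with the smallest p and the 6 with the largest change in each direction (mean of 20 CPM or more in the higher group), 4 per list by p, for marker lists 4 more by level, 6 per test of a difference, and a fixed set. Members and lists were chosen with earlier results of these data known. Positions and promoters are from RefSeq GRCm38.p6, where 609 of the 806 changed genes had a promoter. Some genes are not reported here.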

Additional observations from a re-analysis of the deposited data

Results flagged for a closer look

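In 102 groups of values examined (51 genes and sums at each day), 5 held a library far from the others of its day by Dixon's test, which chance gives in about 1 of 20 groups. At day 5 these were Ncam1 in replicate 5 at 27.5 CPM, Spib in replicate 8 at 333 CPM and Cd200 in replicate 4 at 2819 CPM. At day 14 they were Klf6 in replicate 3 at 1750 CPM and Cap1 in replicate 1 at 176 CPM.

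For 14 of the genes examined, the change from day 5 to day 14 differed between the Schwann-labelled fraction and the macrophages of the same animals by edgeR's test of the difference within animals. Over all genes that test called 461 of 10353 (4.45%). The genes examined were chosen with these data known, Cd200 and Nhlrc2 also by their small p in this same test. The 14 are therefore no independent support for a difference between the fractions. The difference on the log2 scale was positive for Nop58 (1.37), S1pr3 (2.57) and Myc (1.84). It was negative for Cd74 (-1.93), Irf8 (-1.13), Cd83 (-1.28), Cxcl16 (-1.63), Il7r (-1.42), Klf6 (-0.73), Ctsh (-0.82), Ptafr (-1.19), Nhlrc2 (-1.41), Apobec3 (-1.28) and Cd200 (-2.69).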

How the results depend on the processing

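Against 806 genes past the threshold (332 higher, 474 lower), DESeq2 called 1514 (727 and 787), of which 805 were shared, library size scaling 1005 (722 and 283), of which 615 were shared, males alone 6 (2 and 4), females alone 22 (5 and 17), the fit without the macrophage-rich libraries 443 (154 and 289) and the fit without replicate 2 of day 14 361 (137 and 224). Leaving out each library in turn gave 361 to 1175 genes, 137 to 481 higher and 224 to 694 lower, the fewest without day 14 replicate 2 and the most without day 14 replicate 3. Counts under voom, relative log expression scaling, both other filters, sex as a covariate and all 4 groups in 1 fit lay between 640 and 825. With a replicate block 239 genes passed (112 and 127), against 983 for the same 14 animals without it. The 7 shared numbers only name samples, since their correlations ran from -0.25 to 0.23 and 0 day 14 libraries were best matched by their own number. For the difference between repair groups DESeq2 called 9 genes and the fits with a library left out 0 to 0, and for the difference between fractions DESeq2 called 1183 and those fits 211 to 567.

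Signs turned for genes that did not pass. Jun became 0.00853 with library size scaling and 0.235 in females. Cd74 became 0.179 with voom, 0.135 with library size scaling, 0.237 in females and 0.0362 without day 14 replicate 2, and ran from -0.154 to 0.0563 with a library left out. H2-Ab1 became 0.0757 with library size scaling and ran from -0.318 to 0.0626, the latter without day 14 replicate 2. In males Apoe became 0.425 and Lyz2 0.568, and Lyz2 was 0.0823 with the replicate block and 0.228 without the macrophage-rich libraries. The median of the conventional dendritic cell list became 0.0408 with library size scaling and ran from -0.318 to 0.0261 with a library left out, the latter without day 14 replicate 2. In males the medians of chemokine receptors, interferon response, complement and hypoxia became 0.137, 0.456, 0.376 and 0.0527. That of interferon response was 0.0864 with library size scaling and 0.065 without the macrophage-rich libraries, and that of type 1 dendritic cells was -0.208 in females. The cause was not tested. Over 134 genes and their alternatives, 3273 of 3971 pairs kept the call and direction, 668 lost the call, 13 gained it and 17 reversed.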
